A study of Mus musculus with 8 samples.

Results

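The genes described are the conjugating enzymes of the mouse array: UDP-glucuronosyltransferases (UGT), sulfotransferases (SULT), cytosolic and membrane-bound glutathione S-transferases (GST and MGST) and the flavin-containing monooxygenases (FMO). They were chosen by symbol, with earlier results of these data known. The rule took genes whose symbol starts with Ugt1a, Ugt2, Ugt3, Sult, Gsta, Gstm, Gstp, Gstt, Gstk, Gsto, Gstz, Mgst or Fmo followed by the number of the member, on probe sets annotated to 1 gene. Of 18193 genes on the array, 50 met this rule, with 69 probe sets. There were 10 UGT, 13 SULT, 20 GST, 3 MGST and 4 FMO genes.

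RNA came from Dlk-positive hepatoblasts, the embryonic precursors of hepatocytes and bile duct cells, isolated by magnetic sorting from livers of Ink4a-Arf-null mice at embryonic day 14.5. All 8 arrays share that genotype, which removes the best known target locus of the Polycomb protein Bmi1. Transduction with EGFP (4 arrays, labelled control) or with Bmi1 (4 arrays, labelled Bmi1) followed 12 to 18 h after plating on collagen type IV, and the medium held hepatocyte growth factor at 50 ng/ml and epidermal growth factor at 20 ng/ml. At day 28 of culture the cells were purified by flow cytometry, and total RNA equivalent to 10000 cells was amplified in 2 cycles. Series text describes 4 independent experiments, and the arrays carry replicate numbers 1 to 4. How many embryos each experiment pooled and how many clones the transduced cells represent are not stated in the labels.

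UGT enzymes attach glucuronic acid from UDP-glucuronic acid, SULT enzymes attach sulfate from the donor PAPS, and GST enzymes attach glutathione, so that lipophilic drugs, steroids, bile acids and bilirubin become soluble enough for bile or urine. FMO enzymes oxidise soft nucleophiles such as amines and sulfides and often act just before a conjugation step. In rodents many of these genes are low in the fetal liver and increase as hepatocytes mature, while several GST genes are expressed more widely.

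The introduced gene did not separate the groups in the direction of the labels, so groups are named by label throughout. The brighter Bmi1 probe set read 518 ± 218 on the arrays labelled control and 279 ± 60.01 on those labelled Bmi1 (SD, n = 4 each), and the array labelled Bmi1 was lower in 4 of 4 pairs. The difference was -0.89 on the log2 scale (SE 0.32, limma adjusted p = 0.461 without and 0.0248 with the replicate block). The dimmer Bmi1 probe set, at 216 ± 136 and 100.3 ± 25.4, was lower in 4 of 4 pairs too. Where its probes lie on the introduced Bmi1 sequence is not stated in the labels. The Cdkn2a probe set, for the locus absent by genotype, was at background on 4 of 4 control arrays and 3 of 4 arrays labelled Bmi1. Replicates 1 and 2 stood apart from replicates 3 and 4, with the BioC 3' hybridisation control between 198 and 274 on the former and between 97.0 and 119 on the latter. The ratio of the 3' to the 5' Gapdh probe set, a sign of RNA quality, was 3.10 on control 1 and 1.65 to 1.96 on the other 7 arrays. Because bulk RNA was measured, fewer cells of a type and less RNA per cell cannot be told apart in any value here.

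Of the 50 members, 30 were bright enough to be tested, with a mean level at or above the 40th percentile of all genes. Differences are log2 values, arrays labelled Bmi1 minus arrays labelled control, and p-values are limma's, adjusted over all 10916 tested genes with a threshold of 0.05. Ugt2b5 (-2.53), Sult2a2 (-2.44) and Fmo5 (-1.54) fell, and none of the 30 tested members rose, where 0.055% of all tested genes were called lower and 0.11% higher. At an unadjusted limma p under 0.05, 7 members were lower and 0 higher, where 4.33% of all tested genes were lower and 3.48% higher. With the replicate number as a block, 7 members were lower and 0 were higher, against 1.96% and 1.36% of all tested genes. The added members were Sult1d1, Gstm3, Ugt2b36 and Ugt2b35. Intensities of the groups did not overlap for 4 members, all lower in the arrays labelled Bmi1, where 2.91% of all tested genes were separated in that direction and 2.42% in the other. Signs were less one-sided: 22 of 30 members were lower, or 73.3%, where 54.3% of all tested genes were, and the median difference was -0.24 against -0.03. Centring the arrays on all probe sets in place of the tested genes moved the median of all tested genes to 0.11 and left 17 of 30 members lower, with a median of -0.10. Quantile normalization left 19 of 31 lower.

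**Figure D1:**
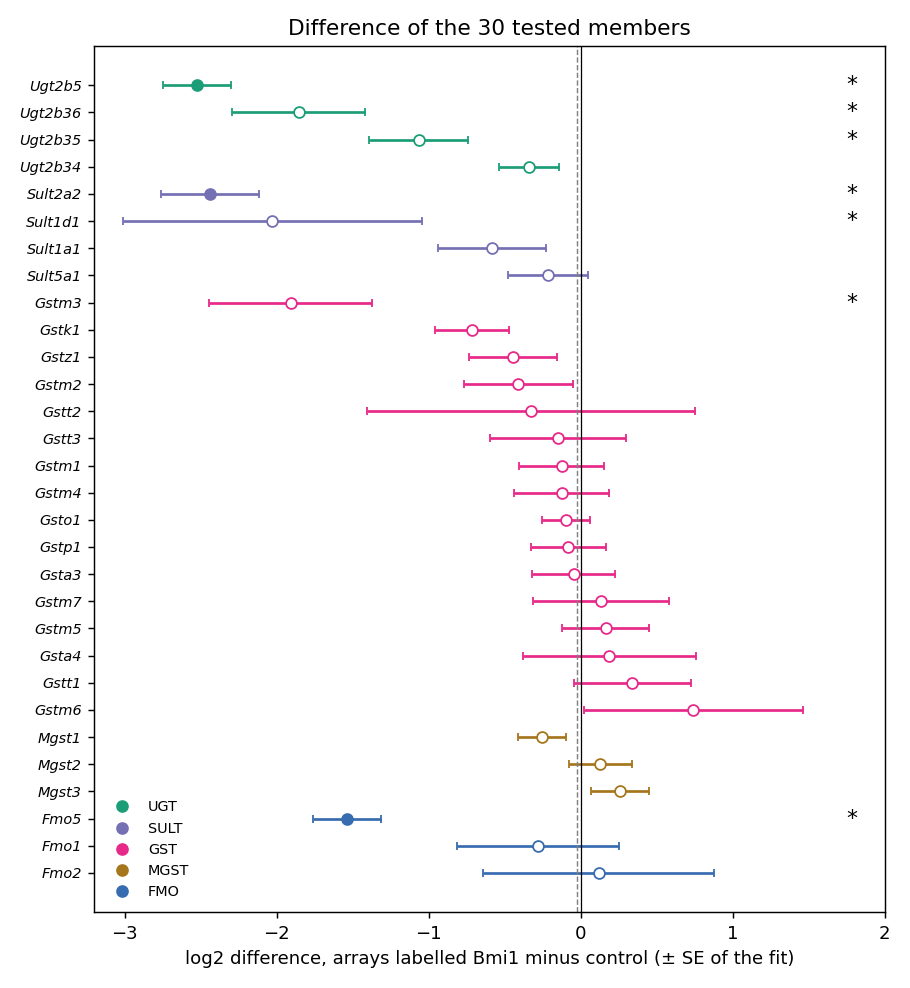
Log2 difference of each of the 30 tested members (horizontal axis, arrays labelled Bmi1 minus control, ± SE of the limma fit, n = 4 arrays each), by family. Filled points passed the test without a block and stars mark members that passed with the replicate block; the dashed line is the median of all tested genes, -0.03. The largest sizes lie among UGT and SULT genes, Gstm3 and Fmo5, and most GST points lie near 0.

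Among the glucuronosyltransferases, 4 of 10 genes were bright enough to be tested, all of the Ugt2b subfamily that glucuronidates steroids, bile acids and many drugs. Each was lower in the arrays labelled Bmi1 in 4 of 4 pairs and under every scaling tried, with a median difference of -1.46. Their differences were unequal, from -2.53 for Ugt2b5 to -0.34 for Ugt2b34.

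The genes lie beside each other on chromosome 5, and RefSeq's promoter windows (assembly GRCm38.p6) show how alike they are at their starts. The 60 bases before each start are shown because the windows of Ugt2b5 and Ugt2b36, the UGT genes with the greatest differences, share a run of 24 bases. Capitals mark the bases identical to that run of Ugt2b5.
Ugt2b5: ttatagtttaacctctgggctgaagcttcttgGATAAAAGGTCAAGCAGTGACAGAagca
Ugt2b36: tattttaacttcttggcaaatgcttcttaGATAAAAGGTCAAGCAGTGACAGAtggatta
Ugt2b35: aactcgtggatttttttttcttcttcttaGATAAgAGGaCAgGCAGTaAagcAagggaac
Ugt2b34: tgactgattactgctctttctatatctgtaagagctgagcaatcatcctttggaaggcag
Ugt2b37: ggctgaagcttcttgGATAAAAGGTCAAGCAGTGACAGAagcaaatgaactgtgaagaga
Ugt2b38: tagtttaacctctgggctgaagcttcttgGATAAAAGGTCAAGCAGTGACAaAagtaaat
These are chr5:87140341-87140400 (minus strand) for Ugt2b5, chr5:87092556-87092615 (minus) for Ugt2b36, chr5:87000800-87000859 (plus) for Ugt2b35, chr5:86906938-86906997 (minus) for Ugt2b34, chr5:87254789-87254848 (minus) for Ugt2b37 and chr5:87424204-87424263 (minus) for Ugt2b38. The run ends 5 bases before the start of Ugt2b5 and 8 before that of Ugt2b36. Of the 27025 genes with a window, 3 hold it exactly on either strand, Ugt2b5, Ugt2b36 and Ugt2b37. Only Ugt2b37 was found by the search, as Ugt2b5 and Ugt2b36 are the genes that defined the run. Ugt2b38 matches at 23 of its 24 bases and Ugt2b35 at 17, while the best ungapped match in the 60 bases of Ugt2b34 has 11. Over the whole 300-base windows, the one of Ugt2b5 was 84.2% identical to that of Ugt2b38, 76.2% to Ugt2b37, 61.4% to Ugt2b36, 57.9% to Ugt2b35 and 46.3% to Ugt2b34. The longest run that the window of Ugt2b5 shared was 72 bases with Ugt2b37 and 62 with Ugt2b38, longer than the 24 with Ugt2b36. Ugt2b37 and Ugt2b38 were at background on all 8 arrays, so the run was also present where no signal could be compared.

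Ugt2b5 read 105, 157, 141 and 197 on control arrays 1 to 4 and 29.6, 20.1, 22.8 and 23.0 on the arrays labelled Bmi1. The groups were far apart, and the arrays labelled Bmi1 varied little around their mean of 23.9 ± 4.02, against 150 ± 38.0 (SD, n = 4 each). It fell 5.76-fold on the log2(value + 3.78) scale (SE 0.22 in log2, limma adjusted p = 0.00796 without and 0.00605 with the pairs as a block). Dropping control 2, control 3, Bmi1 2 or Bmi1 3 ended the call, and over all 8 single omissions the adjusted p lay between 0.00927 and 0.0739.

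Ugt2b36 read 131, 181, 461 and 579 on the control arrays and 60.4, 56.8, 114 and 102 on the arrays labelled Bmi1. The highest array labelled Bmi1 was below the lowest control, and within both groups replicates 3 and 4 were the higher ones. Its difference was -1.86 (SE 0.44, limma adjusted p = 0.180 without and 0.01004 with the replicate block).

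Ugt2b35 read 491, 852, 1276 and 1603 on the control arrays and 366, 411, 493 and 723 on the others. The groups overlapped, since control 1 was below Bmi1 3 and Bmi1 4, but each array labelled Bmi1 was below the control of its own number. The difference was -1.07 (SE 0.33, limma adjusted p = 0.322 without and 0.0157 with the replicate block). With the block, leaving out pair 2, pair 3 or pair 4 ended that call, with adjusted p between 0.0506 and 0.0598. Ugt2b34 read 1703, 1729, 2787 and 2611 against 1376, 1525, 2047 and 2376. Its difference of -0.34 did not pass either way (SE 0.20, limma adjusted p = 0.809 without and 0.0897 with the block). A dimmer Ugt2b34 probe set, tested by itself, differed by -0.63, with a limma adjusted p of 0.706 and 0.0308 with the replicate block. The brighter one's name ends in _s_at, the mark of a probe set that matches several transcripts.

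The 6 untested UGT genes were Ugt2a3, Ugt2b1, Ugt2b37, Ugt2b38, Ugt3a1 and Ugt3a2. Ugt2b1, chosen for naming after its values were seen, read 11.0, 22.9, 17.7 and 14.6 on the control arrays and 3.96, 1.04, 5.95 and 10.9 on the others, lower in 4 of 4 pairs and at background on 2 arrays labelled Bmi1. With no level filter its difference was -1.27 (limma adjusted p = 0.337 without and 0.178 with the replicate block). No probe set is annotated to a single Ugt1a gene. Those genes, which include the bilirubin glucuronosyltransferase Ugt1a1, share exons, and 3 probe sets carry 8 of their symbols together, so they stand outside the members. They read 448 ± 178, 561 ± 234 and 158 ± 69.8 on the control arrays and 192 ± 144, 234 ± 169 and 61.2 ± 46.3 on the arrays labelled Bmi1 (SD, n = 4 each). Each was lower in 4 of 4 pairs. They were not tested.

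**Figure D2:**
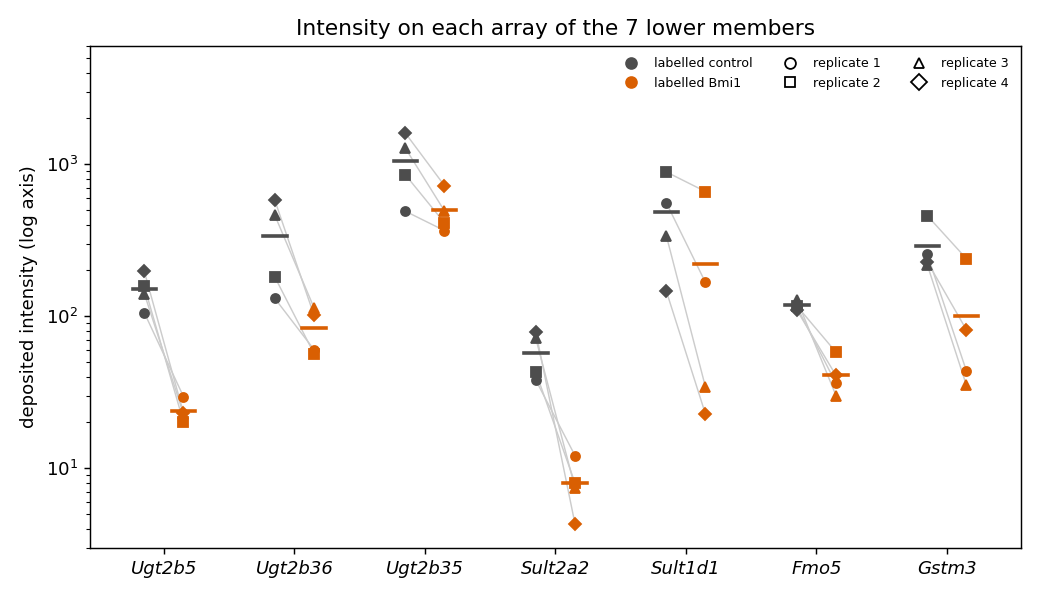
Deposited intensity (log axis) of the 7 members called lower with the replicate block, on each array labelled control (grey) and Bmi1 (orange). Shapes give the replicate number, thin lines join arrays of the same number and bars are group means. Ugt2b5, Ugt2b36, Sult2a2 and Fmo5 do not overlap between groups, and every thin line falls.

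Of the 13 sulfotransferases, 4 were tested and each of these had a negative difference, with a median of -1.31. Sult2a2, an enzyme of the hydroxysteroid class that sulfates dehydroepiandrosterone and bile acids, read 37.9, 42.8, 71.4 and 78.6 on the control arrays. The arrays labelled Bmi1 read 12.1, 7.999, 7.46 and 4.31, all far below, and 1 of them was at background. Its difference of -2.44 was a 5.42-fold fall (SE 0.32, limma adjusted p = 0.0365 without and 0.0152 with the pairs as a block). Each omission of 1 of the 8 arrays ended the call without a block, with adjusted p between 0.0526 and 0.140. Quantile normalization also ended it (adjusted p = 0.0518). With the block, leaving out pair 3 did so (adjusted p = 0.0607).

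Sult1d1, which sulfates dopamine and other catecholamines in mice, had a wide spread within groups. It read 557, 889, 339 and 146 on the control arrays and 167, 661, 34.2 and 22.7 on the arrays labelled Bmi1. Bmi1 2 was above control 1, so the groups overlapped, and replicates 3 and 4 were the lower ones in both groups. Within pairs the differences were -1.81, -0.51, -3.26 and -2.53. The mean of -2.03 did not pass without a block (SE 0.98, limma adjusted p = 0.724) and did with it (SE 0.38, adjusted p = 0.0330). With the block, leaving out pair 1, pair 3 or pair 4 ended that call. A dimmer probe set of Sult1d1 gave -1.57, lower in 4 of 4 pairs.

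Sult1a1, the main phenol sulfotransferase, read between 1452 and 2310 on the control arrays and between 721 and 2457 on the others, a difference of -0.58 that did not pass. Sult5a1 differed by -0.21 (limma adjusted p = 0.957).

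Sult4a1, a sulfotransferase best known from brain and without a settled substrate, was the one member seen on all arrays of one group and none of the other. It was too dim for the level filter and was chosen for naming after its values were seen. On the control arrays it read 5.17, 3.23, 4.12 and 5.12, all at background. The arrays labelled Bmi1 read 45.6, 28.0, 29.0 and 30.6, all above it, so the signal there was at least 4.53-fold higher. With no level filter its difference was 2.10 (SE 0.29, limma adjusted p = 0.0396), one of the 0.0495% of 18193 genes called higher that way. With the replicate block and no filter the adjusted p was 0.0143, where 0.704% of genes were called higher. A second Sult4a1 probe set was close to background, at 0.732 ± 0.380 and 4.12 ± 4.01.

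The other untested SULT genes were Sult1b1, Sult1c1, Sult1c2, Sult1e1, Sult2a8, Sult2b1, Sult3a1 and Sult6b1. Of these, Sult1e1, the estrogen sulfotransferase, stood out after its values were seen. It read 71.6, 69.1, 15.6 and 5.37 on the control arrays and 1.38, 13.4, 1.16 and 0.990 on the arrays labelled Bmi1. It was at background on control 4 and on 3 arrays labelled Bmi1, so that both readings of pair 4 were at background. It was lower in 4 of 4 pairs and the groups overlapped. The test without a filter did not pass (difference -2.27, limma adjusted p = 0.387 without and 0.0573 with the replicate block). Sult1b1, a thyroid hormone sulfotransferase, read 18.0 ± 18.9 and 7.58 ± 3.30, a spread set by control 2 at 46.3. Sult2b1, which sulfates cholesterol and pregnenolone, read 13.7 ± 8.93 and 24.1 ± 5.57. Sult3a1 and Sult6b1 were at background on all 8 arrays, as was Ugt2a3.

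**Figure D3:**
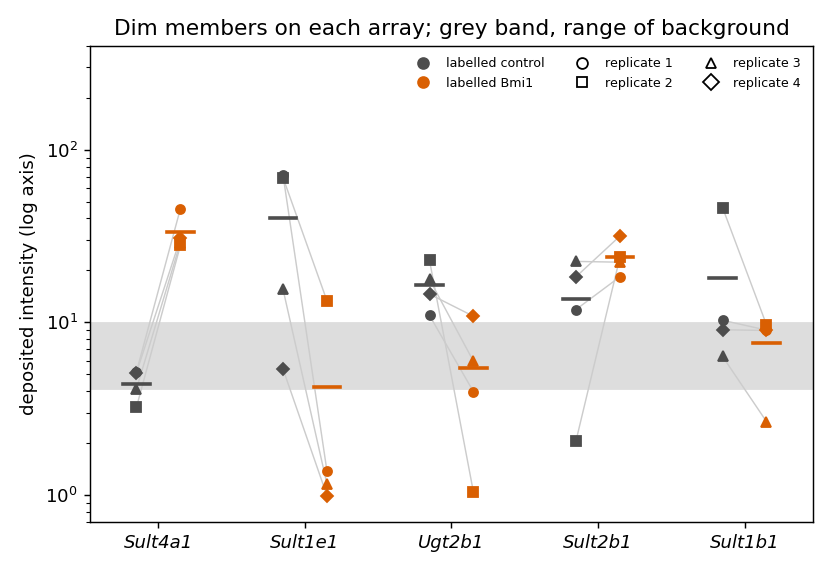
Deposited intensity (log axis) of 5 dim members that were not tested, on each array labelled control (grey) and Bmi1 (orange), with shapes for the replicate number and bars for group means. The grey band spans the background levels of the 8 arrays, 4.09 to 9.97; Sult4a1 lies in or under the band on the control arrays and above it on those labelled Bmi1.

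Of the 4 FMO genes, Fmo5, a monooxygenase abundant in liver and gut that also carries out Baeyer-Villiger oxidations, fell. Control arrays read 115, 117, 129 and 110, a mean of 118 ± 7.89 (SD, n = 4). The arrays labelled Bmi1 read 36.2, 58.0, 30.05 and 40.8, all below the controls. The difference of -1.54 was a 2.91-fold fall (SE 0.22, limma adjusted p = 0.0406 without and 0.0122 with the replicate block). Its 2 dimmer probe sets differed by -1.11 and -1.32 and were lower in 4 of 4 pairs too. Without a block, each of the 8 single omissions ended the call (adjusted p between 0.0526 and 0.144), as did centring on all probe sets (0.125), quantile normalization (0.0524) and testing with no level filter (0.0603). Fmo1, Fmo2 and Fmo4 are neighbours on another chromosome, and neither tested gene among them passed. Fmo1 differed by -0.28. Fmo2, better known from lung, differed by 0.12 (limma adjusted p = 0.995), and its sign turned when some arrays were left out. Fmo4 was under the level filter.

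Glutathione S-transferases were the largest family. Of 16 tested GST genes, 11 were lower and 5 higher, with a median of -0.11. Centred on all probe sets, 6 were lower and 10 higher with a median of 0.02, so the family had no direction that held under each scaling. Gstm3, a mu class enzyme, was the exception, with the greatest size of difference. It read 255, 458, 218 and 228 on the control arrays and 43.5, 239, 35.0 and 81.2 on those labelled Bmi1. Bmi1 2 alone reached the controls, lying above control 3 and control 4. The difference of -1.91 did not pass without a block (SE 0.54, limma adjusted p = 0.262) and passed with it (SE 0.27, adjusted p = 0.0157). Without pair 3 the adjusted p with the block was 0.0521. The probe set's name ends in _s_at, as does that of the brightest Fmo5 probe set, the mark described above for Ugt2b34. A second Gstm3 probe set differed by -1.21 and was lower in 4 of 4 pairs.

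Gstm3 lies within a run of 7 Gstm genes, and the 6 others did not pass in either fit. In chromosome order the differences were 0.16 for Gstm5, 0.13 for Gstm7, 0.74 for Gstm6, -1.91 for Gstm3, -0.41 for Gstm2, -0.13 for Gstm1 and -0.13 for Gstm4. The promoter windows of the Gstm pairs were 44.8% (Gstm5 and Gstm1) to 48.1% (Gstm1 and Gstm4) identical. Gstm3 was 45.7% identical to its neighbour Gstm6 and 48.0% to its neighbour Gstm2, and Ugt2b5 and Ugt2b34 were at 46.3%. Unrelated windows were not aligned as a baseline for these values. The run of 11 members that starts at Ugt2b34 and ends at Sult1e1 has 2 other protein-coding genes inside it. All 5 tested genes of the run were lower, where 54.3% of all tested genes were. With the block 4 of them passed as lower, where 1.96% of all tested genes did.

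**Figure D4:**
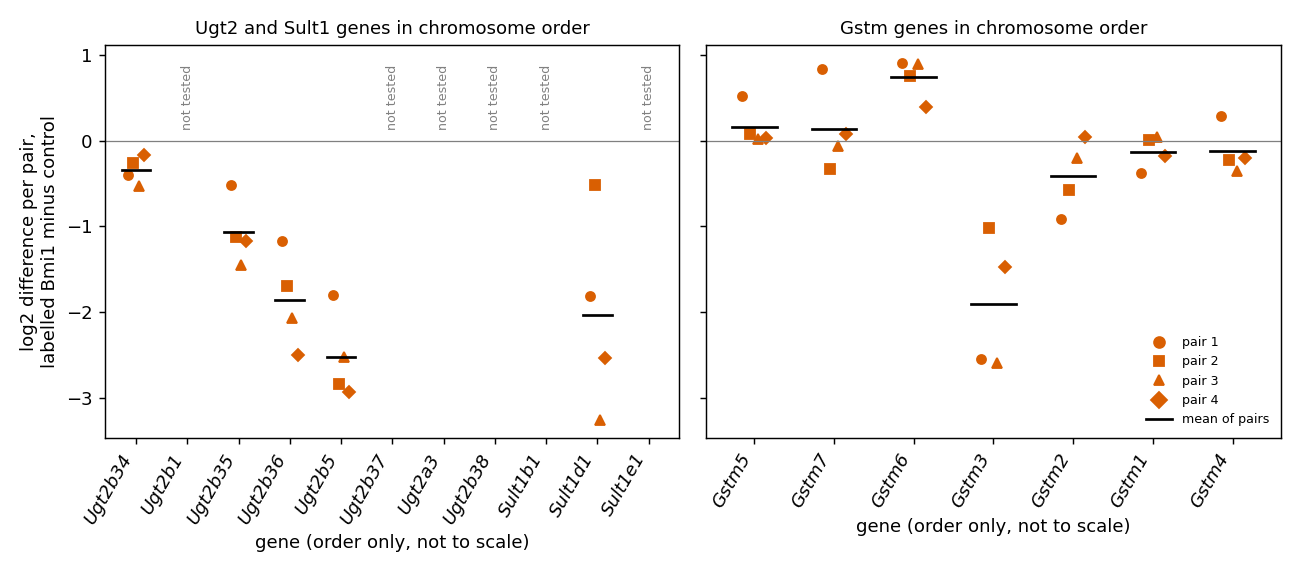
Log2 difference within each pair of same-numbered arrays (points; shapes give the pair) and its mean (bar) for members in chromosome order, for the Ugt2 and Sult1 run (left) and the Gstm run (right). Gene spacing is not to scale. All points of the 5 tested genes on the left lie below 0, and on the right only Gstm3 stays below -1 in all pairs.

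Gstm6 read 7.02, 8.02, 38.9 and 69.8 on the control arrays and 17.9, 17.3, 80.6 and 95.1 on the arrays labelled Bmi1, higher in 4 of 4 pairs. Its difference of 0.74 did not pass (SE 0.72, limma adjusted p = 0.943 without and 0.121 with the replicate block). Gstm5 and Mgst3, a membrane-bound peroxidase and transferase, were also higher in 4 of 4 pairs, by 0.16 and 0.26, and neither passed. Such one-sided pairs were common: 3 members were higher in all pairs against 11.4% of all tested genes, and 11 were lower against 15.9%. Gstk1, the kappa class enzyme of mitochondria and peroxisomes, and Gstz1, which isomerises maleylacetoacetate in tyrosine breakdown, were among the 11, with differences of -0.71 and -0.45 that did not pass. Pairs of tested genes are counted on centred log2 values, and on the deposited intensities Gstz1 was lower in 3 of 4.

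For several other GST and MGST genes the means of the groups lay closer than the arrays within a group. Gstp1, the pi class enzyme, read 2684 ± 962 and 2617 ± 779 (SD, n = 4 each). Gsto1, an omega class reductase, read 1613 ± 132 and 1596 ± 251. Gsta3 read 576 ± 199 and 581 ± 189, with a difference of -0.05 whose sign depended on the scaling. Mgst1, the abundant microsomal enzyme, read 2696 ± 604 and 2356 ± 423, and Mgst2 read 701 ± 185 and 795 ± 145. Gsta2, Gsto2, Gstp3 and Gstt4 were under the level filter. A probe set shared by Gsta1, Gsta2 and a predicted gene read 63.0 ± 27.4 and 31.4 ± 32.0 and was not tested.

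Several members differed more by replicate number than by label. Between replicates 3 and 4 and replicates 1 and 2, limma called 14 of 30 members, 11 higher and 3 lower in replicates 3 and 4, where 24.3% of all tested genes were called in either direction. Gstt2, a theta class enzyme, read 19.5, 40.4, 23.9 and 18.5 on arrays numbered 1 and 2 and 268, 331, 232 and 315 on those numbered 3 and 4, with the controls given first. Its difference of 3.25 (SE 0.22, limma adjusted p = 0.000338) exceeded any difference between labels among the members, while by label it differed by -0.33. Gstm6 differed in the same direction by 2.10, and Sult1d1 and Fmo2 in the other by -2.62 and -2.18. Ugt2b5 differed by 0.04 between these sets of arrays. Sult2a2 differed by 0.06, a mean over controls that were higher and arrays labelled Bmi1 that were lower in replicates 3 and 4.

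**Figure D5:**
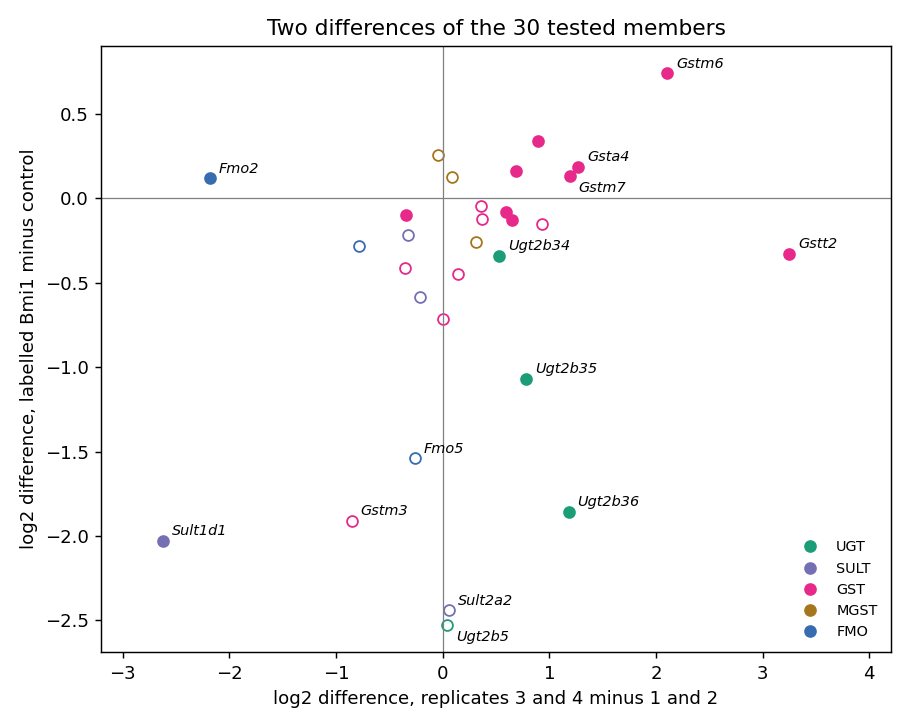
Each of the 30 tested members by its log2 difference between replicates 3 and 4 and replicates 1 and 2 (horizontal) and between arrays labelled Bmi1 and control (vertical). Filled points passed the limma test of the horizontal difference. Gstt2, at 3.25 and -0.33, lies far along the horizontal axis, and Ugt2b5 and Sult2a2 lie low on the vertical axis near 0 on the other.

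Whether the difference between labels itself varied between these sets was tested as an interaction, which called 0 of 30 members and 0 of all tested genes. At an unadjusted p under 0.05 there were 3 of 30 members and 301 of 10916 genes. The members were Gsta4, Sult2a2 and Ugt2b36. Sult2a2 and Ugt2b36 fell further in replicates 3 and 4, with interactions of -1.32 and -0.85 that did not pass after adjustment. Gsta4, which conjugates the lipid aldehyde 4-hydroxynonenal, had the largest interaction among the members, -2.02, with an adjusted p of 0.9995 in limma. It read 166 and 159 on controls 1 and 2 and 549 and 293 on the same-numbered arrays labelled Bmi1, but 713 and 1060 on controls 3 and 4 against 446 and 585. Its mean difference of 0.19 therefore summarises pairs of opposite sign.

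The pathways around these enzymes were read from lists of genes. Cofactor supply covers the enzymes that make UDP-glucuronic acid, PAPS and glutathione. Of its 13 tested genes 11 were lower, with a median of -0.43, and Cth, which makes cysteine for glutathione, was the one that passed, with the replicate block (-1.12, limma adjusted p = 0.0197). Ugdh, which makes UDP-glucuronic acid, read 1264 ± 298 and 1232 ± 153, and Papss2, which makes PAPS, read 146 ± 63.2 and 138 ± 101.

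Other enzymes of drug metabolism were lower in 16 of 16 tested genes, with a median of -1.18. In limma 0 passed without a block, where 9 were at an unadjusted p under 0.05. With the replicate block 7 passed, all lower, where 1.96% of all tested genes were called lower. Among them were Mat1a (-2.17), which makes the methyl donor, and the carboxylesterase Ces2a (-1.72). Glyat (-1.84) and Baat (-1.44), which attach amino acids to acyl groups and bile acids, were others. The remaining ones were Nnmt (-1.89), Inmt (-1.41) and As3mt (-0.77), which methylate nicotinamide, indoleamines and arsenic. Among 4 tested enzymes that remove conjugates, Arsa, the lysosomal arylsulfatase A, was higher by 0.70 (limma adjusted p = 0.214 without and 0.0254 with the replicate block).

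Exporters of conjugates had 9 of 13 tested genes lower, with a median of -0.45. Abcc2, the canalicular pump for glucuronide, sulfate and glutathione conjugates, fell from 211 ± 56.3 to 58.4 ± 21.1 (SD, n = 4 each), a difference of -1.88 (SE 0.26, limma adjusted p = 0.0406). With the replicate block the canalicular pumps Abcb11 (-2.10), Abcb4 (-1.38) and Abcg2 (-0.61) and the scaffold Pdzk1 (-1.56) passed as well. Abcc3 and Abcc4, pumps of the basolateral side, had positive differences of 0.88 and 0.55 that did not pass.

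Regulators of these genes were lower in 13 of 19 tested, with a median of -0.14. Centred on all probe sets, 10 of 19 were lower, with a median of -0.00341. Nr1h4, the bile acid receptor FXR, differed by -1.38 and passed with the replicate block (adjusted p = 0.0310 in limma) and not otherwise (0.653). Hnf4a read 1214 ± 486 and 1031 ± 265. Nfe2l2, the factor Nrf2 that induces many GST genes, read 921 ± 149 and 933 ± 111, and Ahr read 975 ± 109 and 895 ± 265. Nr1i2 and Nr1i3, the xenobiotic receptors PXR and CAR, were too dim to be tested. Nr1i2 read 18.0 ± 6.26 and 9.38 ± 5.13, with each array labelled Bmi1 below the control of its number. Nr1i3 read 3.73 ± 1.53 and 5.78 ± 6.04.

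Short motifs of 4 regulators were searched on both strands of the promoter windows, from 250 bases before to 50 after the start, in 44 of the 50 members that had one. GTTAAT, an arm of the palindromic HNF1 site, was in 5 members, or 11.4%, against 8.24% of all genes with a window. CAAAGTCCA, an HNF4 site, was in 1 (2.27% against 0.555%), and TGACNNNGC, the core of the antioxidant response element, was in 4 (9.09% against 14.0%). TTGCNNAA, which some C/EBP sites match, was in 12 (27.3% against 12.2%), Ugt2b5 and Ugt2b36 among them. Of the 6 called members with a window, 1 held GTTAAT, 0 held CAAAGTCCA or TGACNNNGC and 2 held TTGCNNAA. These are counts of letters in a window.

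Markers of cell types that the culture could hold were read beside these results. Hepatocyte markers were lower in 14 of 14 tested genes, with a median of -1.11, where 54.3% of all tested genes were lower. The sizes were unequal, and Alb (-0.16), Ttr (-0.15) and Afp (-0.14) differed little and passed in neither fit. The summed intensity of the list lay between 22909 and 30837 on the control arrays and between 15423 and 24907 on the others. Alb, Ttr, Afp and Apoa1 made up most of the sum on every array, so it does not describe each marker. Tat read 3.42 on Bmi1 3, under that array's background of 4.09. Pck1, an enzyme of gluconeogenesis, fell by 1.74 (limma adjusted p = 0.0434), and Cyp3a11, Fbp1, G6pc and Apoa2 passed with the replicate block. Biliary markers were higher in 4 of 5 tested genes, and Epcam passed with the block (0.99). Their sum was 1605 to 2808 against 2560 to 3339. Fibroblast and stellate cell markers were lower in 10 of 11 tested genes, with a median of -0.98 (9 of 11 under each other scaling). Their sum was 4879 to 15018 against 3780 to 7974, with control 1 the highest array and Lrat at background on all 8. Vim alone read 3180 ± 332 and 3008 ± 727 within these sums. The median of the tested fibroblast and stellate cell markers was -2.67 in pair 1 and -0.13, -0.48 and -0.26 in pairs 2, 3 and 4. With the block, Acta2 was lower and Reln higher.

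Endothelial sums were 119 to 238 against 244 to 352, with Pecam1 and Tek at background on all 8 arrays. Egfl7 made up most of the sum on every array, so the higher sums do not describe the list as a whole. Among the untested genes, the means of Kdr, Cdh5, Emcn, Tek and Pecam1 were lower on the arrays labelled Bmi1. Those of Stab2 and Lyve1 were higher. The single gene tested, Egfl7, was higher by 0.95 (limma adjusted p = 0.289 without and 0.0205 with the replicate block). Macrophage sums overlapped widely, at 559 to 2806 and 675 to 2478. Cd14 was the largest part of them on every array, so they do not describe the list as a whole. Of the 4 tested macrophage genes 0 passed in either fit, with 0 at an unadjusted limma p under 0.05. Erythroid sums were 38.2 to 82.8 and 65.3 to 104, with Alas2 at background. Epor, the only erythroid gene tested, read 33.3 ± 17.4 and 69.0 ± 19.5 (limma adjusted p = 0.427 without and 0.0510 with the block). Hba-a1 read 15.5 ± 14.4 and 4.75 ± 2.40, and Klf1 12.5 ± 3.86 and 13.9 ± 2.29. Mesothelial sums were 261 to 686 and 276 to 427, with Msln lower with the block (-1.26). Wt1 (-0.89), Upk3b (-0.17) and Podxl (0.48) passed in neither fit. The part of these markers in the differences of the conjugating enzymes was not tested.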

How the data were processed

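RNA of 8 samples was hybridised to Affymetrix arrays with 45101 probe sets. The deposited values are linear intensities whose mean after trimming 2% at each end was 100 on every array. Which software produced them is not given in the sources here. Before the log2 step 3.78 was added (the overall median divided by 4), which understates the fold of dim genes, and arrays were centred on the median of the tested genes. Symbols came from the platform annotation, checked through gene identifiers (34754 of 34945 single-symbol probe sets matched). For each gene the brightest single-symbol probe set was used. The level filter kept genes from the 40th percentile of mean log2 level upward, 10916 of 18193, including 30 of 50 members.

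The test between the groups of 4 arrays was the moderated one of limma 3.58.1 (R 4.3.3, functions lmFit and eBayes, intensity trend), two-sided, adjusted after Benjamini and Hochberg, with a threshold of 0.05, and the code was tested on simulated data. The number of arrays limits the precision, and p-values measure the spread between these samples. Arrays of the same replicate number deviated together (correlations of 0.53, 0.49, 0.50 and 0.68), so the numbers were taken as pairs, and the fit with the replicate block is given where it changes a call. Pairs are counted on centred log2 values for tested genes and on deposited intensities for other genes and probe sets. The gap of replicates 3 and 4 to replicates 1 and 2 was not removed and adds to these correlations. Arrays of different number within these sets also deviated together. The correlations were 0.48 for control 1 with Bmi1 2, 0.12 for control 2 with Bmi1 1, 0.28 for control 3 with Bmi1 4 and 0.36 for control 4 with Bmi1 3. Background on an array was the 95th percentile of the intensities of 27 Bacillus control probe sets, and a bound sets the mean log2 intensity of the bright group against the other group's background.

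Members and lists were chosen with earlier results of these data known. Members were named if they were Ugt2b5, Sult2a2, Fmo5 or Gstm3, passed either fit, did not overlap between groups, had the largest or smallest difference of their family, or were higher in 4 of 4 pairs, and list genes if they passed either fit. Any other gene was chosen after its values were seen.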

Additional observations from a re-analysis of the deposited data

Results flagged for a closer look

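In the 30 groups examined, 1 array stood apart by Dixon's criterion, which chance alone gives in about 1 of 20 groups. For Mgst3, Bmi1 3 was the lowest of the 4 arrays labelled Bmi1, at an intensity of 100.5 where the others read 119, 127 and 126, and its gap took up 0.832 of the group's range on the log2 scale.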

How the results depend on the processing

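Without a block 3 members were called, all lower. The count was 7 with the replicate block and 5 with replicates 1 and 2 against 3 and 4 as a block, in each case lower. The latter block did not call Gstm3 (limma adjusted p = 0.0805) or Sult1d1 (0.0845). With no level filter and with every probe set tested it was again 3, but 2 lower (Ugt2b5 and Sult2a2) and 1 higher (Sult4a1). It was 1 with quantile normalization and 0 within replicates 1 and 2 and within replicates 3 and 4, each fitted on 4 arrays. A 60th percentile level filter also gave 0, but it tested 21 members and left out Ugt2b5, Sult2a2 and Fmo5. Leaving out 1 array gave 0 to 1 calls: Ugt2b5 alone without control 1, control 4, Bmi1 1 or Bmi1 4, and 0 without control 2, control 3, Bmi1 2 or Bmi1 3, where 7, 7, 10 and 7 members were at an unadjusted limma p under 0.05. With the replicate block, 3 members were called without pair 3, and 5 to 8 in the other 8 settings tried, the 8 (no level filter, every probe set) including Sult4a1 higher. The block raised the calls in the pathway lists from 1 to 15 of 65 tested genes. Among all tested genes it raised them from 0.055% to 1.96% lower and from 0.11% to 1.36% higher. It ended no call among the members and added those named in the report. The members' median difference of -0.24 stayed below 0 in all 22 alternatives, with -0.10 the nearest to 0. Among the 15 members named by rule, signs turned for 4. Unnamed members turned as well, since 17 of 30 members were lower in place of 22 when centred on all probe sets. Fmo2 was -0.10 within replicates 1 and 2, -0.42 to 0.58 over the single omissions, and -0.20 with the block without pair 3. Gsta3 was 0.19 within replicates 1 and 2, 0.0879 centred on all probe sets, 0.0283 uncentred and 0.0301 quantile normalized (the same values with the block), -0.24 to 0.12 over the single omissions and 0.13 with the block without pair 3. Gstm5 was -0.0386 to 0.39 over the single omissions, below 0 without control 1 or Bmi1 4. Mgst2 was -0.18 within replicates 3 and 4, -0.0165 to 0.28 over the single omissions, below 0 without control 1, and -0.0451 with the block without pair 1. The cause of these changes was not tested beyond the fewer arrays or genes that omissions and filters leave. Combinations of the block with another setting were chosen after seeing the data. Dim members are limited by signal over background, as 20 of 50 were under the level filter.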
